A study of Homo sapiens with 13 samples.

Results

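The aminoacyl-tRNA synthetase genes, 20 cytosolic and 16 mitochondrial, were followed in RNA-seq of H82 and H146, established human small cell lung cancer (SCLC) cell lines, upon treatment with FHD-286. They were chosen by gene symbol as the family's members and not by their values, although earlier results of these data were known. All 36 were found among the 56831 genes of the tables. FHD-286 inhibits SMARCA4 and SMARCA2, the ATPases of the SWI/SNF chromatin remodelers, and the study asked what their inhibition does to the state of SCLC cells. Wild-type cells of each line were left untreated (3 libraries of H82 and 3 of H146) or kept in 100 nM FHD-286 for 14 days (3 libraries of H82 and 4 of H146). Untreated cells are labelled as having received no treatment, and a vehicle is not named in the sources used here. Each line is a single established line, and whether its libraries came from separate cultures is not stated, so that the *p* values below measure only the spread between these libraries, which may be technical. The values are TPM, transcript abundances set per gene length that sum to 1000000 in every library.

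Aminoacyl-tRNA synthetases charge each transfer RNA with its amino acid, the step that makes the genetic code hold during translation. Most amino acids have a cytosolic enzyme and a separate mitochondrial enzyme, whose gene name ends in 2, and all are encoded in the nucleus. *GARS* and *KARS* each serve both compartments from the same gene, *EPRS* joins the glutamate and proline activities in a single protein, and *FARSA* and *FARSB* encode the subunits of the cytosolic phenylalanine enzyme. Several cytosolic enzymes sit in the multisynthetase complex with scaffold proteins. Many of the cytosolic genes are known targets of ATF4, the transcription factor of the amino acid response, in which uncharged tRNA is sensed and the supply of amino acids and charged tRNA is raised.

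The neuroendocrine markers *SYP*, *CHGA*, *INSM1* and *NCAM1* were detected in untreated cells of both lines, and *NEUROD1* stood at 224 to 234 TPM in untreated H82 and below 1 TPM in every H146 library. Treated H82 libraries held 15554 to 16633 genes at 1 TPM or more against 21227 to 21772 in untreated ones, whereas treated H146 libraries held 18778 to 19309 against 17476 to 17965. The median log2 fold change over all genes tested was −0.56 in H82 and 0.25 in H146. After scaling by the median of ratios, a size factor taken over genes detected in every library, these medians were −0.14 and −0.02, so each member whose call in a line changed under that scaling is given with its value there. The share of TPM in mitochondrially encoded genes was 22.1 to 24.1% in untreated and 12.3 to 14.9% in treated H82, and 7.56 to 8.86% and 3.82 to 11.4% in H146. Treated H82 replicate 1 stood apart in genes of the amino acid response, as given with those genes. Treated H82 replicate 2 stood apart in *INSM1* (296 TPM, against 32.1 and 33.9 TPM in the other treated libraries), *EPCAM* (32.8 TPM, against 3.08 and 1.11 TPM) and *FOXA2* (35.7 TPM, against 2.62 and 1.08 TPM), genes that stood at 268 TPM or more in every H146 library. The depth of the libraries is unknown, since TPM keeps none, and no counting interval is given.

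The promoters are shown first because several members carry the same letters. RefSeq promoter windows (250 bases before to 50 after the start, GRCh38.p14) were matched for 30 of the 36 members. The core of the C/EBP-ATF response element, TGATGNAA on either strand, which ATF4 binds with a C/EBP partner, was in 6 of 16 cytosolic windows (37.5%) and 1 of 14 mitochondrial windows (7.14%), against 3.62% of all 35116 promoters. The stretches that hold it are given 5′ to 3′ on the gene's own strand, with the matched letters in capitals (TTGCATCA is the reverse complement of TGATGCAA):

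AARS (alanine; chr16:70289675-70289704, minus strand, first base 198 before the start): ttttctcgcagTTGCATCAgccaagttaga
CARS (cysteine; chr11:3057407-3057436, minus strand, first base 13 before the start): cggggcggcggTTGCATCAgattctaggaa
IARS (isoleucine; chr9:92293692-92293721, minus strand, first base 24 before the start): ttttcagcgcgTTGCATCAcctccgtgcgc
MARS (methionine; chr12:57488053-57488082, plus strand, first base 15 before the start): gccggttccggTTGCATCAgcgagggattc
NARS (asparagine; chr18:57621804-57621833, minus strand, first base 4 after the start): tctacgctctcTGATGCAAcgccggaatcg
TARS (threonine; chr5:33440956-33440985, plus strand, first base 9 before the start): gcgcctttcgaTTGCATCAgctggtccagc
YARS2 (mitochondrial tyrosine; chr12:32756076-32756105, minus strand, first base 208 before the start): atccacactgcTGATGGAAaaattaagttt

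The 6 cytosolic matches all read TGATGCAA on either strand, and *YARS2* read TGATGGAA. A match describes the letters only. The E-box CACGTG was in 1 of 16 cytosolic windows (*IARS*) and 3 of 14 mitochondrial ones (*CARS2*, *EARS2* and *MARS2*), against 7.26% of all promoters. The NRF1 letters GCATGCGC were in 0 of 16 cytosolic and 2 of 14 mitochondrial windows (*MARS2* and *YARS2*), against 3.05%. The ETS letters CCGGAAGT were in 4 of 16 and 3 of 14 windows, against 4.14%. *HARS* and *HARS2*, the cytosolic and mitochondrial histidine enzymes, lie head to head on opposite strands of chromosome 5, and the 84 bases between their RefSeq starts (chr5:140691371-140691454) carry the ETS letters at either end, once on each strand. The ETS counts of the cytosolic and mitochondrial windows thus both include these same sites.

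In untreated cells the levels, in TPM, spanned a wide range. Among cytosolic members of H82, *GARS* (335 ± 15.5 TPM, SD, n = 3) and *SARS* (335 ± 9.0) were highest and did not differ beyond their spread, and *CARS* was lowest (28.9 ± 1.42). Among those of H146, *AARS* (774 ± 60.0 TPM, SD, n = 3) and *NARS* (682 ± 71.1) were highest and within their spread of each other, and *HARS* was lowest (23.9 ± 1.64). *IARS2* led the mitochondrial members in both lines, at 191 ± 8.63 TPM in H82 and 93.0 ± 7.09 TPM in H146, and *SARS2* stood at 1.70 ± 0.58 and 1.90 ± 0.29 TPM. The tables of the lines were made separately, so levels are not tested between them. Some of these genes share exons with others in GENCODE release 44. *SARS2* (chr19:38915266-38930763) shares 48.2% of its exonic bases with a same-strand protein-coding gene, *VARS2* (chr6:30914205-30926459) shares 63% with a same-strand lncRNA, and the share of 50-base stretches found in transcripts of other genes was 41% and 58.7%, respectively, 16% in *YARS2* and at most 9.02% in every other member. The authors counted reads per gene with STAR on an earlier GENCODE release. Whether that release holds the overlapping genes was not checked, and the strand setting is not given in the sources used here, so the levels of *SARS2*, *VARS2* and *YARS2* are taken as uncertain.

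In H146, treatment with FHD-286 lowered 8 of the 20 cytosolic members (*CARS*, *FARSB*, *GARS*, *QARS*, *SARS*, *TARS*, *WARS* and *YARS*) and raised 4 (*HARS*, *LARS*, *RARS* and *VARS*), with a median log2 fold change of −0.26 (limma on log2(TPM + 1), Benjamini-Hochberg adjusted *p* under 0.05 over all genes tested). Among all 19585 genes tested in H146, 15.5% were lower and 32.5% were higher. Of the 12 cytosolic enzymes outside the multisynthetase complex, 7 fell and 2 rose (median −0.64), and of the 8 inside it 1 fell and 2 rose (median −0.01). The fall inside it was that of *QARS*, with the limits given below. Under the median of ratios, 9 outside it were lower and 1 higher, and 3 inside it were lower and 2 higher. The shares of all genes were then 25.1% lower and 21.3% higher. In bulk RNA, fewer cells of a type and less RNA per cell cannot be told apart.

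**Figure D1:**
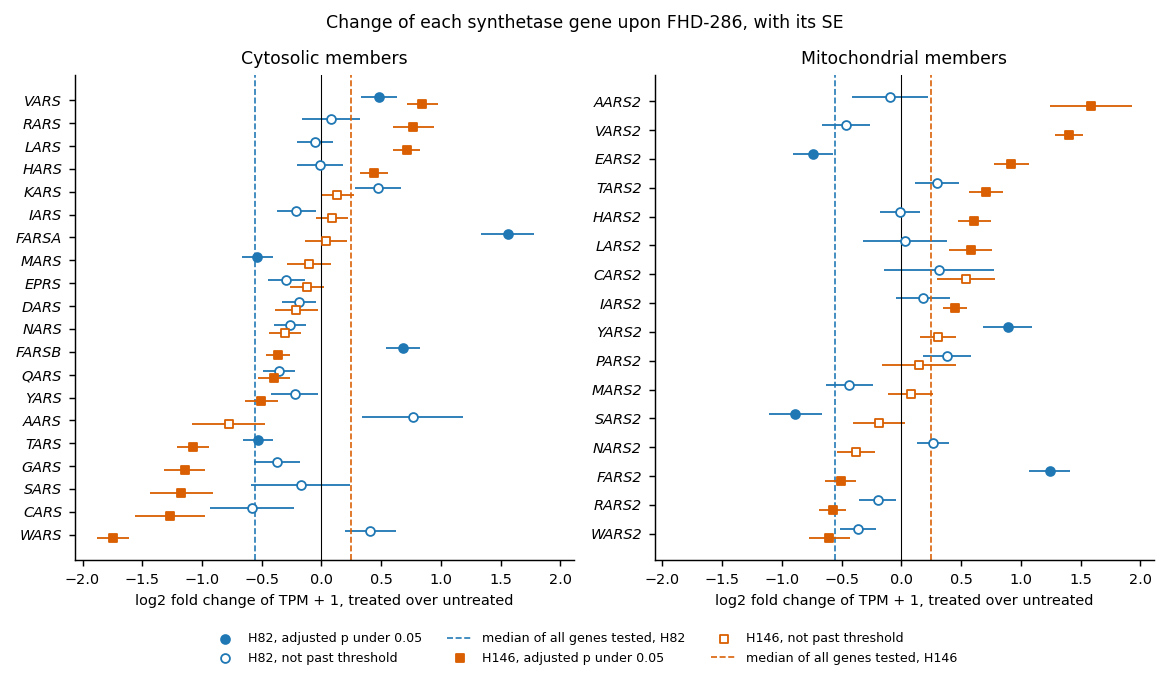
Log2 fold change of TPM + 1, treated over untreated, of the 20 cytosolic (left) and 16 mitochondrial (right) members in H82 (blue circles) and H146 (orange squares), with bars for the SE and filled symbols for adjusted p under 0.05. Dashed lines are the medians of all genes tested (−0.56 in H82, 0.25 in H146); *WARS* lies lowest in H146 at −1.74 and *FARSA* highest in H82 at 1.56.

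*WARS*, which charges tryptophan, had the largest fall. It stood at 171, 147 and 135 TPM in untreated H146 libraries and at 38.4, 42.9, 47.1 and 49.1 TPM in treated ones. The groups were far apart, with a mean 3.40 times higher in untreated cells and a log2 fold change of −1.74 ± 0.13 (SE, adjusted *p* = 4.53e-05, limma). *CARS* went from 112, 94.4 and 94.0 TPM to 41.1, 74.3, 31.2 and 28.9 TPM (log2 fold change −1.27 ± 0.30 SE, limma adjusted *p* = 0.00841). *SARS*, the serine enzyme, measured 594, 525 and 554 TPM without and 239.8, 419, 189 and 194 TPM with FHD-286 (−1.17 ± 0.26, limma adjusted *p* = 0.00696). In both genes treated replicate 2 was the highest treated library, yet below every untreated one. *GARS*, whose product charges glycine in both compartments, went from 568, 479.8 and 456 TPM to 212, 301, 191 and 211 TPM (−1.14 ± 0.17, limma adjusted *p* = 0.00111). *TARS*, the threonine enzyme, went from 341, 275 and 289 TPM to 129, 165, 130 and 145 TPM (−1.08 ± 0.13, limma adjusted *p* = 0.000436). All 5 genes fell in H146 under each processing alternative and with any library left out. *AARS*, the alanine enzyme, had untreated values of 841, 758 and 724 TPM and treated values of 456, 835, 328 and 329 TPM, so that treated replicate 2 reached the untreated range; its log2 fold change of −0.78 ± 0.31 did not pass the threshold (limma adjusted *p* = 0.0651) and passed it without that library, at −1.07, and under the median of ratios, at −1.10. Of the 6 cytosolic genes with the C/EBP-ATF letters printed above, *CARS* and *TARS* fell in H146, and *AARS*, *IARS*, *MARS* and *NARS* were not past the threshold. *NARS* was lower with median-of-ratios scaling (−0.62, adjusted *p* = 0.00897 in limma) and without treated H146 replicate 2 (−0.38, limma adjusted *p* = 0.0243). With *AARS*, 4 of the 6 were lower in either case. Of all 20 cytosolic members, 8 were lower as deposited, 12 under that scaling and 10 without that library. The shares of all genes were 15.5%, 25.1% and 19.6%. Genes with and without the letters were not compared by a test. *WARS*, *SARS* and *GARS* had no match in their windows.

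The falls of *FARSB*, *QARS* and *YARS* were smaller, between −0.37 and −0.50 on the log2 scale, and each was lost without untreated H146 replicate 1, when the cytosolic members that fell numbered 5 and the mitochondrial ones 1. The share of all genes without that library was not taken. *FARSB*, *QARS* and *YARS* were each also lost with a replicate block, a term for the replicate number in the fit. *FARSB* was lost without untreated H146 replicate 2 and *YARS* without untreated H146 replicate 3. *QARS* was also lost on leaving out any other library but treated replicate 2. It did not pass either with no filter on low values, under quantile normalization or with eBayes without its trend. Among the members that rose, *VARS*, the valine enzyme, went from 99.2, 113 and 98.2 TPM to 182, 157, 214 and 197 TPM (0.84 ± 0.13, limma adjusted *p* = 0.00138). *LARS* and *RARS*, the leucine and arginine enzymes of the multisynthetase complex, rose by 0.71 ± 0.11 and 0.77 ± 0.17, with no overlap between groups. *KARS*, the lysine enzyme of both compartments, measured 131, 115 and 109.6 TPM untreated and 107, 127, 139.8 and 148 TPM treated, and *EPRS* 193, 157 and 139.8 TPM untreated and 139, 173, 139.5 and 144 TPM treated. For both, treated and untreated libraries overlapped, and the log2 fold changes of 0.13 ± 0.14 and −0.12 ± 0.14 did not pass the threshold (limma adjusted *p* = 0.463 and 0.501). Under the median of ratios *EPRS* was lower (−0.44, limma adjusted *p* = 0.0349) and *KARS* stood at −0.19. In H146, the groups did not overlap for 12 of 20 cytosolic and 11 of 16 mitochondrial members, against 52.9% of all genes tested.

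Of the 16 mitochondrial members of H146, 7 rose (*AARS2*, *EARS2*, *HARS2*, *IARS2*, *LARS2*, *TARS2* and *VARS2*) and 3 fell (*FARS2*, *RARS2* and *WARS2*), with a median log2 fold change of 0.38. The falls were close to their share of all genes (15.5%), and the rises were somewhat above theirs (32.5%), in a group of only 16. *AARS2* went from 17.1, 21.4 and 15.8 TPM to 55.0, 27.8, 83.7 and 75.2 TPM, a mean 3.34 times higher (1.58 ± 0.34, limma adjusted *p* = 0.00619). Treated replicate 2 was again nearest to the untreated libraries. *VARS2* went from 14.7, 15.2 and 13.2 TPM to 37.5, 41.0, 41.8 and 37.8 TPM (1.40 ± 0.12, limma adjusted *p* = 6.74e-05), with the exon overlap given above. *EARS2*, the mitochondrial glutamate enzyme, went from 26.9, 28.03 and 19.8 TPM to 46.6, 43.7, 48.1 and 51.6 TPM (0.92 ± 0.15, limma adjusted *p* = 0.00149). Each of these rose under every alternative. *TARS2* went from 32.2, 36.6 and 31.5 TPM to 53.2, 45.4, 63.1 and 60.7 TPM (0.71 ± 0.14, limma adjusted *p* = 0.0045). *HARS2* went from 27.8, 28.7 and 24.2 TPM to 34.3, 45.5, 44.6 and 42.3 TPM (0.61 ± 0.14, limma adjusted *p* = 0.00748). Its head-to-head neighbour *HARS* went from 23.8, 25.6 and 22.3 TPM to 30.7, 30.6, 33.8 and 35.9 TPM (0.44 ± 0.12, limma adjusted *p* = 0.016). The rises of *HARS* and *HARS2* were above the median of all genes by 0.19 and 0.36 and did not pass once scaled by the median of ratios (0.13 and 0.30, limma adjusted *p* = 0.313 and 0.0799), nor did those of *IARS2* (0.13) and *LARS2* (0.28). The call of *LARS2* was also lost with no filter on low values, under quantile normalization and with the replicate block. It was lost too without untreated H146 replicate 1 or 3 or treated H146 replicate 1, 3 or 4. The calls of *HARS* and *IARS2* were lost with the replicate block, and that of *HARS* also without untreated H146 replicate 1 or 3. Under the median of ratios, 12 cytosolic and 4 mitochondrial members were lower and 3 and 4 were higher in H146, against 25.1% lower and 21.3% higher among all genes. The members lower only then were *AARS*, *DARS* (−0.53), *EPRS*, *NARS* and *NARS2* (−0.70). Without treated H146 replicate 2, 10 cytosolic and 4 mitochondrial members were lower and 4 and 10 were higher, against 19.6% and 39.3% of all genes.

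**Figure D2:**
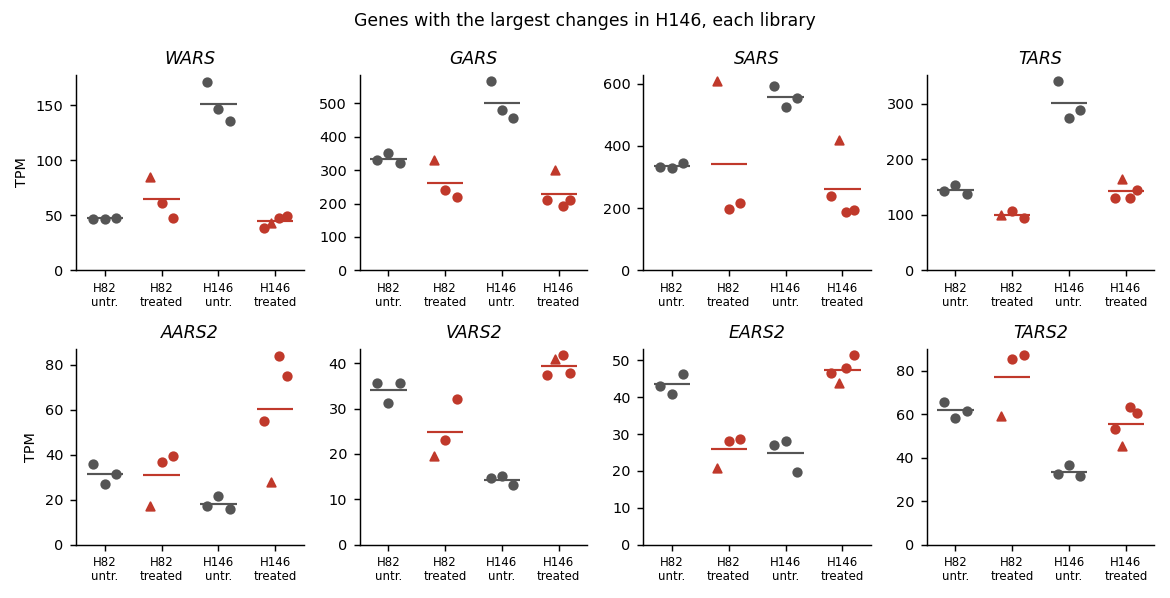
TPM of 8 members in each library (untr., untreated), with lines for group means; grey points are untreated and red points treated libraries, and triangles mark treated H82 replicate 1 and treated H146 replicate 2. In H146 the treated libraries of *WARS* sit between 38.4 and 49.1 TPM, below all untreated ones, and those of *VARS2* between 37.5 and 41.8 TPM, above all untreated ones.

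For 13 amino acids, a cytosolic and a mitochondrial gene could be set side by side. Untreated cells had more cytosolic than mitochondrial transcript, per length, in 13 of 13 pairs of H82 (median ratio 3.09) and 11 of 13 of H146 (median ratio 7.21; *HARS* and *RARS* were below their partners). In H146, the log2 fold change of the mitochondrial gene was above that of its cytosolic partner in 10 of 13 pairs. Threonine had the opposed pair *TARS*, which fell, and *TARS2*, which rose, and the ratio of their mean TPM went from 9.003 to 2.56. Arginine was opposed in the other direction, with *RARS* higher and *RARS2* lower, and the ratio went from 0.44 to 1.14. Histidine, leucine and valine had both genes higher, and tryptophan had both lower. The limits given above for the calls of *HARS*, *HARS2* and *LARS2* hold here. The call of *WARS2* was lost with the replicate block and without untreated H146 replicate 1 or 2. For alanine, the ratio of *AARS* to *AARS2* went from 42.7 to 8.06, with only *AARS2* past the threshold. In H82, 8 of 13 pairs had the larger log2 fold change in the mitochondrial gene, and no pair had both genes past the threshold.

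In H82, 5 of 20 cytosolic members passed the threshold, *FARSA*, *FARSB* and *VARS* higher and *MARS* and *TARS* lower, and 4 of 16 mitochondrial members, *FARS2* and *YARS2* higher and *EARS2* and *SARS2* lower. Among all 19770 genes tested in H82, 45.5% were lower and 13.1% higher. The median log2 fold change was −0.18 for cytosolic and 0.01 for mitochondrial members, and 33 of the 36 lay above the median of all genes. That median covers every gene kept, also low ones, and fewer genes stood at 1 TPM or more in treated H82, as given above. The members were not set against genes of similar level. The groups did not overlap for 12 cytosolic and 7 mitochondrial members, against 67.8% of all genes.

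All 3 genes of phenylalanine charging rose in H82. *FARSA*, the catalytic subunit of the cytosolic enzyme, went from 145.6, 109 and 149 TPM to 303, 435 and 469 TPM, a mean 2.99 times higher (log2 fold change 1.56 ± 0.22 SE, limma adjusted *p* = 0.00115). *FARSB*, the other subunit, went from 152, 162 and 142 TPM to 222, 250.3 and 262 TPM (0.68 ± 0.14, limma adjusted *p* = 0.00508). *FARS2*, the mitochondrial enzyme, went from 25.0, 24.8 and 25.3 TPM to 76.4, 54.5 and 53.5 TPM (1.24 ± 0.17, limma adjusted *p* = 0.00105). Treated replicate 1 was lowest of the treated libraries in *FARSA* and *FARSB* and highest in *FARS2*, and all treated libraries were above all untreated ones. In H146, *FARSA* measured 349.8, 341 and 364 TPM untreated and 333, 271, 429.7 and 438 TPM treated (0.04 ± 0.18, limma adjusted *p* = 0.87). *FARSB* there fell from 145.6, 133 and 133 TPM to 105, 103, 105 and 113 TPM (−0.37 ± 0.10, limma adjusted *p* = 0.0164). *FARS2* fell from 34.8, 30.0 and 33.0 TPM to 20.05, 21.2, 25.8 and 23.7 TPM in that line (−0.51 ± 0.13, limma adjusted *p* = 0.0132). *FARSB* and *FARS2* thus passed the threshold in opposite directions in the lines, also under the median of ratios. The H82 call of *FARSB* was lost without untreated H82 replicate 3 (adjusted *p* = 0.05033, limma), and the H146 calls of both were lost without untreated H146 replicate 1 (adjusted *p* = 0.0846 and 0.065, limma). Both H146 calls were also lost with the replicate block (limma adjusted *p* = 0.0831 and 0.0578), and that of *FARSB* without untreated H146 replicate 2 (limma adjusted *p* = 0.051).

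**Figure D3:**
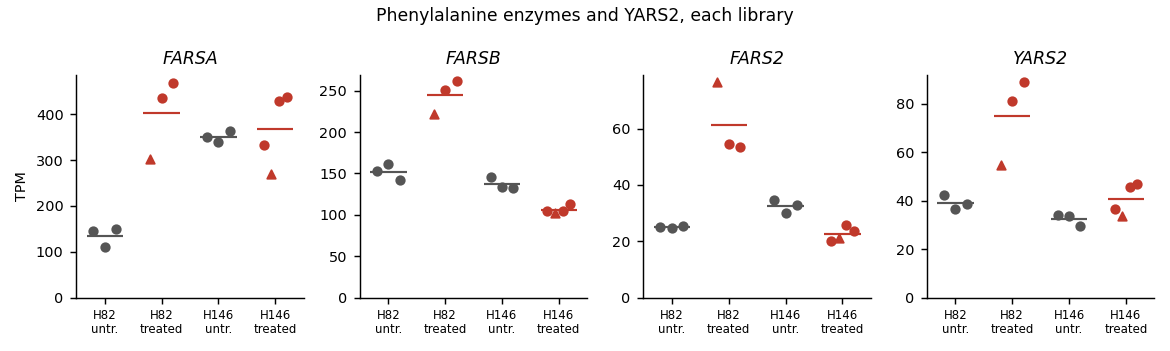
TPM of *FARSA*, *FARSB*, *FARS2* and *YARS2* in each library, drawn as in the plot of H146 genes (grey untreated, red treated, lines for means, triangles for treated H82 replicate 1 and treated H146 replicate 2). In H82 every treated library lies above every untreated one for all 4 genes; in H146 the treated libraries of *FARSB* (103 to 113 TPM) and *FARS2* (20.05 to 25.8 TPM) lie below the untreated ones.

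*YARS2*, the mitochondrial tyrosine enzyme, rose in H82 from 42.4, 36.6 and 38.6 TPM to 54.6, 81.1 and 89.1 TPM (0.89 ± 0.20, limma adjusted *p* = 0.00842). *VARS* rose in both lines, in H82 from 177, 147 and 188 TPM to 222, 234 and 257 TPM (0.48 ± 0.15, limma adjusted *p* = 0.0302), a call that was lost on leaving out any H82 library but treated replicate 1. *TARS* fell in both lines, in H82 from 143, 155 and 138 TPM to 99.8, 106 and 94.8 TPM (−0.53 ± 0.13, limma adjusted *p* = 0.0102). *MARS*, the methionine enzyme, went from 178, 168 and 180.3 TPM to 130.2, 115 and 117 TPM in H82 (−0.54 ± 0.13, limma adjusted *p* = 0.00997), and measured 315, 296 and 253 TPM untreated and 254, 369, 236 and 228 TPM treated in H146, where groups overlapped. The falls of *TARS* and *MARS* in H82 were close to the median of all genes, −0.56, and under the median of ratios the values were −0.04 and −0.05 (limma adjusted *p* = 0.783 and 0.781). *EARS2* fell in H82 from 43.2, 40.8 and 46.4 TPM to 20.9, 28.02 and 28.6 TPM (−0.74 ± 0.16, limma adjusted *p* = 0.00741), opposite to its rise in H146, and under the median of ratios its value in H82 was −0.26 (limma adjusted *p* = 0.159). *SARS2* was near the floor of the filter, at 1.90, 1.04 and 2.15 TPM untreated and 0.48, 0.43 and 0.39 TPM treated in H82 (−0.89 ± 0.22, limma adjusted *p* = 0.012), and at 1.88, 2.20 and 1.62 TPM untreated and 0.99, 2.08, 2.03 and 1.24 TPM treated in H146, where it did not pass. It passed the filter in H82 only through its untreated libraries and so had to differ, was not tested with any of these left out, and is no support for a fall. *KARS*, at 198, 197 and 194 TPM untreated and 208, 308 and 315 TPM treated, and *EPRS*, at 288, 332 and 286 TPM untreated and 278, 232 and 230.0 TPM treated, did not overlap between groups in H82 but missed the threshold (0.47 ± 0.19 and −0.29 ± 0.15, limma adjusted *p* = 0.0702 and 0.139). Under the median of ratios *KARS* was higher (0.96, limma adjusted *p* = 0.00277) and *EPRS* stood at 0.20. *HARS* and *HARS2* had log2 fold changes of −0.01 each in H82, with untreated libraries at 41.7, 43.5 and 41.1 TPM and at 26.3, 30.4 and 27.7 TPM, and treated ones at 31.3, 48.7 and 47.6 TPM and at 22.7, 30.8 and 30.8 TPM. For both, treated replicate 1 lay below the untreated libraries and the other treated libraries above them, and under the median of ratios both were higher (0.47 and 0.46, limma adjusted *p* = 0.0477 and 0.0298). With that scaling, 0 cytosolic and 1 mitochondrial member (*SARS2*, with the limit just given) were lower and 8 and 7 higher in H82, against 32.9% lower and 24.2% higher among all genes. Of those higher only then, not yet given, *LARS* stood at 0.43, *IARS2* at 0.67, *NARS2* at 0.75, *PARS2* at 0.85 and *TARS2* at 0.79. Quantile normalization gave 7 members lower and 7 higher and TPM without mitochondrially encoded genes 10 and 4, against 4 and 5 with TPM as deposited. The shares of all genes under these scalings were not taken, so the counts show only how the calls moved.

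Treated H82 replicate 1 differed from the other treated libraries in many members. *AARS* stood at 151, 149 and 157 TPM untreated and at 546, 181 and 176 TPM in treated replicates 1, 2 and 3. *SARS* stood at 331, 328 and 345 TPM untreated and at 608, 197 and 217 TPM treated, so that replicate 1 was above and the others were below every untreated library. *CARS* showed the same order, with 30.3, 27.5 and 28.8 TPM untreated and 34.9, 15.1 and 12.8 TPM treated. *WARS* (46.9, 46.9 and 47.7 TPM untreated; 85.1, 61.1 and 47.8 TPM treated) and *GARS* (329.7, 352 and 323 TPM untreated; 329.8, 239 and 218 TPM treated) were also highest in replicate 1. Of the 36 members, it held the highest treated value in 11 cytosolic and 4 mitochondrial genes and the lowest in 7 and 12. None of these 5 genes passed the threshold in H82 with all libraries, and under the median of ratios *AARS* (1.25, limma adjusted *p* = 0.0494) and *WARS* (0.89, limma adjusted *p* = 0.0155) were higher. Without treated H82 replicate 1, 10 of 20 cytosolic members were lower and 6 higher, and 4 of 16 mitochondrial members were lower and 7 higher, against 52.2% and 18.4% of all genes. *SARS*, *CARS* and *GARS* were then lower (log2 fold changes −0.69, −1.004 and −0.55) and *AARS*, *KARS* and *RARS* higher (0.23, 0.66 and 0.36). Without an untreated H82 library the cytosolic members that fell numbered 0 (replicate 1), 1 (replicate 2) and 0 (replicate 3), those that rose numbered 1 without replicate 3, and the mitochondrial ones that fell numbered 1 without any of the 3. Leaving out treated replicate 2, with the marker values given above, left 2 lower and 2 higher in each compartment, against 42.6% and 9.03% of all genes. No such share was taken without an untreated library, so those counts show only how the calls moved.

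**Figure D4:**
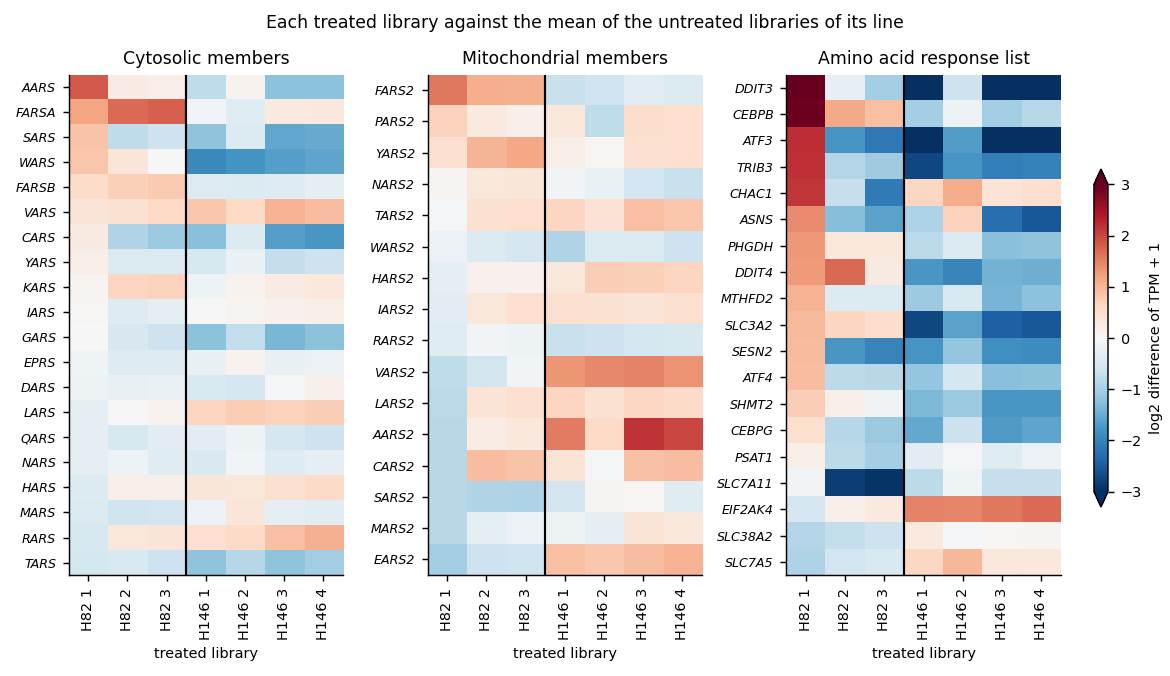
Log2 difference of TPM + 1 between each treated library (columns, replicate number after the line) and the mean of the untreated libraries of its line, for the cytosolic members, the mitochondrial members and the amino acid response list, ordered by treated H82 replicate 1; red is higher and blue lower than untreated, with colours clipped at 3 in either direction. Treated H82 replicate 1 is the highest of the treated H82 libraries in 15 of the 19 response genes, and treated H146 replicate 2 the highest of its line in 16.

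The amino acid response, described at the start, was counted in the same libraries. In H146, 12 of its 19 genes fell and 2 rose (median log2 fold change −1.04), against 15.5% lower and 32.5% higher among all genes. After median-of-ratios scaling 14 were lower and 1 higher, against 25.1% and 21.3% of all genes. *ATF4* fell in H146 from 1748, 1634 and 1660.2 TPM to 754, 1188, 704 and 716 TPM (−1.03 ± 0.19, limma adjusted *p* = 0.0032). *ATF3*, a stress-induced factor downstream of it, had the largest fall, from 369, 316 and 335 TPM to 27.8, 106, 35.1 and 32.7 TPM (−2.95 ± 0.41, limma adjusted *p* = 0.000739). Treated replicate 2 was the highest treated H146 library in both genes and in 16 of the 19 genes of the list. *EIF2AK4*, which encodes the GCN2 kinase that senses uncharged tRNA, rose from 4.99, 4.72 and 4.29 TPM to 15.0, 14.7, 15.9 and 17.3 TPM (1.56 ± 0.14, limma adjusted *p* = 8.42e-05), and *SLC7A5*, a subunit of the leucine transporter, was the other gene that rose, a call not held under the median of ratios. Without treated replicate 2, 15 of the 19 were lower in H146, against 19.6% of all genes.

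In H82, 2 of the 19 fell and 3 rose, against 45.5% and 13.1% of all genes. After median-of-ratios scaling 0 were lower and 5 higher, against 32.9% and 24.2% of all genes. *ATF4* stood at 758, 733 and 759 TPM untreated and at 1433, 436 and 423 TPM in treated replicates 1, 2 and 3 (−0.22 ± 0.46, limma adjusted *p* = 0.701). *CEBPB*, a partner of ATF4, had the largest rise, from 23.4, 24.9 and 28.6 TPM to 203, 57.6 and 48.3 TPM (1.66 ± 0.51, limma adjusted *p* = 0.0262). *SLC38A2*, an amino acid transporter, had the largest fall of those past the threshold, from 139, 161 and 145 TPM to 80.8, 90.7 and 95.5 TPM (−0.73 ± 0.14, limma adjusted *p* = 0.00348), also a call not held under the median of ratios. *DDIT3*, the stress factor CHOP, chosen after its values were seen, stood at 23.3, 18.7 and 19.9 TPM untreated and at 432, 17.1 and 9.56 TPM treated; its exons cover 5.05% of the exonic bases of *MARS* on the opposite strand. Treated replicate 1 was highest among the treated libraries in 15 of the 19 genes. With that library left out, 12 of the 19 fell and 3 rose, with a median of −0.67, close to the 52.2% and 18.4% of all genes and their median of −0.56, and *ATF4* was lower (−0.80). The part of this library in the results for the members was not tested beyond leaving it out. *MYC*, which drives ribosome and translation genes, did not pass in either line: it measured 1457, 1272 and 1467 TPM untreated and 1491, 2320.2 and 2662 TPM treated in H82 (0.59 ± 0.27, limma adjusted *p* = 0.106), and 477, 487 and 446 TPM untreated and 356, 329, 503 and 505 TPM treated in H146 (−0.18 ± 0.18, limma adjusted *p* = 0.436). *MYC* depended on the scaling, and with the median of ratios it was higher in H82 (1.08, limma adjusted *p* = 0.0107) and lower in H146 (−0.50, limma adjusted *p* = 0.0297).

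The changes of 13 of the 36 members differed between the lines by the interaction of line and treatment (limma over 13 libraries), 8 with the change in H146 below that in H82 and 5 above, against 13.3% and 45% of all 15679 genes tested in both. *WARS* had the largest difference, −2.15 ± 0.25 (H146 minus H82 on the log2 scale, limma adjusted *p* = 2.19e-05), with a fall in H146 and 0.41 ± 0.21 in H82. *VARS2* differed by 1.87 ± 0.22 (limma adjusted *p* = 2.59e-05), with 35.6, 31.2 and 35.6 TPM untreated and 19.5, 23.1 and 32.1 TPM treated in H82, where its log2 fold change of −0.47 ± 0.20 missed the threshold. *FARS2* differed by −1.75 ± 0.21 (limma adjusted *p* = 2.76e-05). *AARS2* differed by 1.68 ± 0.51 (limma adjusted *p* = 0.0127), with 35.96, 26.7 and 31.5 TPM untreated and 17.2, 36.6 and 39.3 TPM treated in H82. The others below were *AARS*, *FARSA*, *FARSB*, *GARS*, *TARS* and *NARS2*, and the others above were *EARS2*, *HARS2* and *LARS*. Under the median of ratios, 23 were below and 2 above (*EARS2* and *VARS2*), against 30.3% and 25.3% of all genes; *AARS2* then missed the threshold (0.89, limma adjusted *p* = 0.12), and *LARS* and *HARS2* changed sign (−0.04 and −0.17). Quantile normalization gave 8 below and 8 above and TPM without mitochondrially encoded genes 5 and 9. Without untreated H146 replicate 1, 5 were below and 5 above. Without treated H82 replicate 1, 11 were below and 5 above, and the values of *WARS*, *VARS2*, *FARS2* and *AARS2* were −1.94, 1.71, −1.59 and 1.31. For the interaction, shares of all genes were taken only as deposited and under the median of ratios, so the other counts show only how the calls moved.

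The rest of the charging machinery was counted in the same way, against 45.5% lower and 13.1% higher among all genes of H82 and 15.5% and 32.5% in H146. Of the 3 scaffolds of the multisynthetase complex, *AIMP2* rose in H82 from 32.1, 34.7 and 33.4 TPM to 66.2, 98.7 and 88.3 TPM (1.29 ± 0.17, limma adjusted *p* = 0.00096). In H146, *EEF1E1* fell from 16.5, 12.3 and 12.3 TPM to 8.24, 8.90, 7.28 and 9.41 TPM (−0.63 ± 0.16, limma adjusted *p* = 0.0128). The other scaffolds of each line did not pass, although under the median of ratios *AIMP1* was higher in H82 (0.84) and lower in H146 (−0.55). Mitochondria charge glutamine through glutamyl-tRNA and the amidotransferase encoded by *QRSL1*, *GATB* and *GATC*, and formylate initiator methionyl-tRNA through *MTFMT*. Of these 4 genes, *QRSL1*, *GATB* and *MTFMT* rose in H82 (1 of the 4 without treated H82 replicate 2, against 9.03% of all genes) and *GATC* and *MTFMT* in H146, and none fell with TPM as deposited. Under the median of ratios *GATC* missed the threshold in H146 (0.31, limma adjusted *p* = 0.0921) and *QRSL1* was lower there (−0.47, limma adjusted *p* = 0.00878). *MTFMT* had the largest rise in both, from 18.6, 18.7 and 15.5 TPM to 24.6, 31.1 and 34.3 TPM in H82 (0.73 ± 0.18, limma adjusted *p* = 0.0103) and from 4.22, 4.86 and 4.91 TPM to 11.7, 7.20, 13.9 and 14.4 TPM in H146 (1.14 ± 0.23, limma adjusted *p* = 0.00478). *DTD1*, which removes D-amino acids from tRNA, rose in H82 from 6.08, 4.73 and 6.05 TPM to 16.0, 14.2 and 11.8 TPM (1.18 ± 0.19, limma adjusted *p* = 0.002). It fell in H146 from 17.0, 16.3 and 20.7 TPM to 10.6, 11.1, 10.3 and 10.2 TPM (−0.71 ± 0.13, limma adjusted *p* = 0.00335). Of the 4 genes of selenocysteine charging and tRNA proofreading, 2 fell and 1 rose in H82, with the largest fall in *AARSD1*, an editing factor for alanyl-tRNA (4.25, 3.43 and 3.26 TPM to 1.77, 0.97 and 1.62 TPM; −0.93 ± 0.22, limma adjusted *p* = 0.00947; not held under the median of ratios, nor was that of *PSTK*), and in H146 only *DTD1* passed, joined by *PSTK* under that scaling.

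Elongation factors deliver the charged tRNA to the ribosome. Of 9 listed, *EEF1G* was listed at 0 in every library and could not be tested, although it belongs to a factor that all cells use. Of the 8 tested in H82, 3 rose and 1 fell, against 13.1% and 45.5% of all genes. *TUFM*, the mitochondrial elongation factor, rose from 285, 244 and 279.5 TPM to 513, 774 and 783 TPM (1.33 ± 0.21, limma adjusted *p* = 0.00182), and *EEF1D* fell from 42.2, 32.7 and 41.7 TPM to 19.3, 21.2 and 19.6 TPM (−0.91 ± 0.15, limma adjusted *p* = 0.00228). In H146, 1 of the 8 passed, against 15.5% lower and 32.5% higher among all genes. It was *EEF1A2*, the form of the elongation factor found in neurons and muscle, which fell from 459.7, 437 and 439 TPM to 159, 175, 161 and 158 TPM (−1.44 ± 0.10, limma adjusted *p* = 2.57e-05). Without treated H146 replicate 2, 3 of the 8 were lower, against 19.6% of all genes. Under the median of ratios *EEF1D* was also lower, which made 2 of the 8, against 25.1% of all genes.

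Summed over the 20 cytosolic members, H146 libraries held 5285, 4666 and 4594 TPM untreated and 3290.2, 4289, 3290.7 and 3398 TPM treated. The mitochondrial members summed to 558, 563 and 500.2 TPM untreated and 651, 595, 731 and 715 TPM treated. Both sums were without overlap between groups, the cytosolic one lower by 0.44 and the mitochondrial one higher by 0.32 as a log2 ratio of means. In H82 the cytosolic sums were 3344, 3437 and 3358 TPM untreated and 4156, 3421 and 3485 TPM treated, and the mitochondrial sums were 718, 714 and 701 TPM untreated and 629.9, 862 and 907 TPM treated, so that both overlapped. Replicate 1 had the highest cytosolic and the lowest mitochondrial sum of the treated H82 libraries. The scaling moved these sums: under the median of ratios the log2 ratio was −0.76 for cytosolic and −0.005 for mitochondrial members in H146, and 0.62 and 0.66 in H82.

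**Figure D5:**
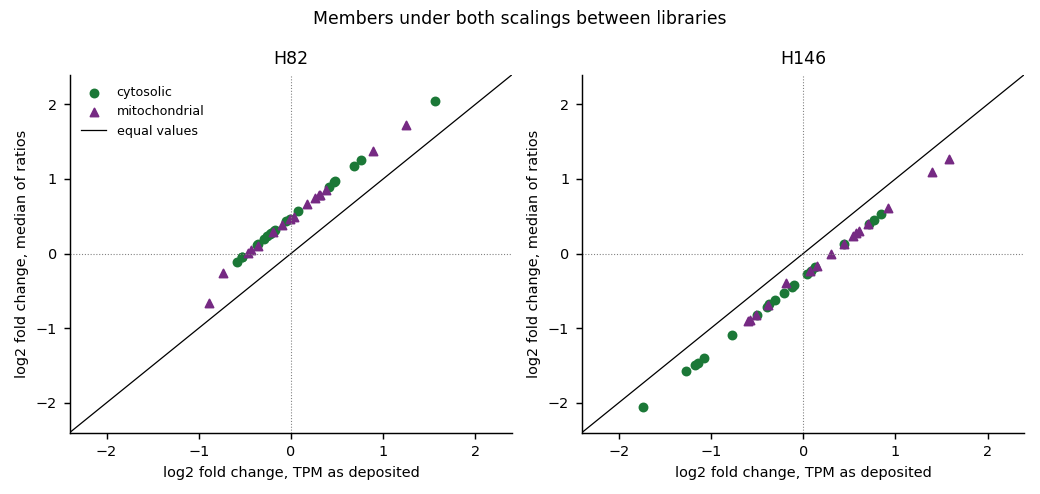
Log2 fold change of each member with TPM as deposited (horizontal) and after scaling by the median of ratios (vertical), in H82 (left) and H146 (right); circles are cytosolic and triangles mitochondrial members, and the line marks equal values. All members shift up in H82 and down in H146, so that *TARS* in H82 moves from −0.53 to −0.04 and *HARS* in H146 from 0.44 to 0.13.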

How the data were processed

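RNA-seq of 13 libraries of H82 and H146 was analysed from 1 TPM table per line. The submitters' processing notes name Trim Galore 0.4.4, STAR and DESeq2. The study's methods give mapping to hg38 and counting per gene with STAR and DESeq2 for the authors' own tests, and name no trimming step for RNA-seq. The deposited values are TPM, normalized by the authors separately in each table, so levels were not tested between lines; strandedness is not given in the sources used here. Genes at 1 TPM or more in at least 3 libraries of a line were kept (all 36 members in both lines), and log2(TPM + 1) was fitted per line with limma 3.58.1 (eBayes with a trend, R 4.3.3), treated against untreated. Adjusted p-values (Benjamini-Hochberg, across every gene kept) under 0.05 were called. Fold changes on this scale understate those of low genes. The difference between lines was the interaction over 13 libraries, for genes kept in both. The fits were tested on simulated data.

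Alternatives were a pseudocount of 0.1, no filter, median of ratios, quantile normalization, TPM without mitochondrially encoded genes, a replicate block, eBayes without the trend, and leaving out each library. Values in every library are given for up to 5 members with the largest change past the threshold and no overlap per line and compartment, members past it in opposite directions, *GARS*, *KARS*, *EPRS*, *HARS* and *HARS2*, up to 4 with the largest interaction, *ATF4*, *MYC*, and the largest rise and fall of each list; *AARS* and the H82 values of *CARS*, *SARS* and *GARS* under treated replicate 1 were chosen after their values were seen. The members and lists were chosen with earlier results of these data known. Positions are from GENCODE release 44 (hg38) and promoters from RefSeq (GRCh38.p14). Protein sequences were not analysed here.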

Additional observations from a re-analysis of the deposited data

Results flagged for a closer look

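*EPRS* in treated H146 replicate 2 stood at 173 TPM, apart from the other 3 treated libraries: its gap to the nearest was 0.857 of the range, above Dixon's critical value for 4 samples, which chance passes in about 1 of 20 groups. The rule was run on the treated H146 values of all 36 members, and *EPRS* was the only member flagged. The change upon treatment with FHD-286 differed between the lines, by the interaction in limma, for 13 members. As log2 fold change in H146 minus that in H82, the 8 below were *AARS* (−1.54), *FARSA* (−1.52), *FARSB* (−1.05), *GARS* (−0.77), *TARS* (−0.55), *WARS* (−2.15), *FARS2* (−1.75) and *NARS2* (−0.64). The 5 above were *LARS* (0.77), *AARS2* (1.68), *EARS2* (1.66), *HARS2* (0.62) and *VARS2* (1.87).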

How the results depend on the processing

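The scaling between libraries moved most counts, and the cause was not tested. Shares of all genes were taken only for some of these settings and are given above with the counts they belong to. For the other settings the counts show how the calls moved and are no result about the members. In H82, cytosolic members lower went from 2 to 0 under the median of ratios, 6 under quantile normalization and 5 without mitochondrially encoded genes (0 to 10 with a library left out), and those higher from 3 to 8 under the median of ratios (1 to 6). Mitochondrial members lower went from 2 to 1, 1 and 5 under the same 3 scalings (1 to 4), and those higher from 2 to 7 under the median of ratios and 5 under quantile normalization (2 to 7). In H146, cytosolic members lower went from 8 to 5 with the replicate block (5 to 10 with a library left out) and mitochondrial members lower from 3 to 1 (1 to 4), while mitochondrial members higher went from 7 to 4 under the median of ratios (6 to 10). The members that differed between the lines went from 13 to 25 under the median of ratios, to 9 with the replicate block and to 10 to 16 with a library left out. The log2 ratio of summed TPM in H82 went from 0.13 to 0.62 (median of ratios) and −0.14 (quantile) for cytosolic and from 0.17 to 0.66 for mitochondrial members, and in H146 from −0.44 to −0.76 and from 0.32 to −0.0049 (median of ratios). Libraries of the same replicate number did not deviate together (r between −0.04 and 0.03 in H82 and −0.11 and 0.01 in H146), so the numbers were not taken as pairs. Log2 fold changes that turned sign in H82 under the median of ratios were *DARS* 0.30, *EPRS* 0.20, *GARS* 0.12, *HARS* 0.47, *IARS* 0.28, *LARS* 0.43, *NARS* 0.23, *QARS* 0.13, *SARS* 0.32, *YARS* 0.27, *AARS2* 0.38, *HARS2* 0.46, *MARS2* 0.045, *RARS2* 0.29, *VARS2* 0.0092 and *WARS2* 0.10. Under quantile normalization they were *HARS* 0.19, *RARS* −0.053, *AARS2* 0.19, *HARS2* 0.32, *IARS2* −0.11 and *WARS2* 0.088, and without mitochondrially encoded genes *RARS* −0.073 and *LARS2* −0.12. In H146 they were *FARSA* −0.28, *IARS* −0.23, *KARS* −0.19, *MARS2* −0.23, *PARS2* −0.16 and *YARS2* −0.0046 under the median of ratios, *MARS2* −0.080 and *PARS2* −0.0287 under quantile normalization, and *FARSA* −0.054 and *MARS2* −0.000685 with the replicate block. With a library left out, signs turned for *AARS2* (−0.30 to 0.27), *HARS* (−0.12 to 0.19), *HARS2* (−0.083 to 0.13), *LARS* (−0.14 to 0.046), *LARS2* (−0.19 to 0.45), *RARS* (−0.070 to 0.36) and *SARS* (−0.69 to 0.12) in H82 and *EPRS* (−0.23 to 0.0020), *FARSA* (−0.05 to 0.18), *IARS* (−0.00252 to 0.22) and *MARS2* (−0.038 to 0.19) in H146. None of these passed the threshold with all libraries and TPM as deposited. Depth is unknown, which limits what can be said of *SARS2*.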
